A study of Picea abies with 19 samples.

Results

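Root age was examined within 2 genotypes of Norway spruce (Picea abies), 20 and 35, whose sample titles begin with Fast. The arrays were chosen by their titles: 4 arrays from 18-month-old cuttings, 2 of each genotype, and 2 arrays from 5-month-old cuttings, 1 of each genotype, which makes 6 of the 19 arrays in the study. The question was which transcripts differed between 18 and 5 months, and which of those differences both genotypes had in common. No probe passed the test for a shared age difference, and across all probes the age differences of the genotypes did not run together.

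The study measured transcripts in fine root ends of rooted cuttings of 8 genotypes, with 1 spotted oligonucleotide array per sample and 1 dye (Alexa 647). The groups used here were genotype 20 at 18 months (2 arrays), genotype 35 at 18 months (2 arrays), genotype 20 at 5 months (1 array) and genotype 35 at 5 months (1 array). Ages count from the start of adventitious rooting, so the older cuttings were in their second year and the younger ones in their first. All the cuttings grew in fertilised peat in the same nursery and were sampled in the same season, and short roots were detached after washing. The labels call the samples of a genotype biological samples of several root ends each, and a genotype is a clone, so each age difference below belongs to 1 clone. What was fast is not given in the labels. Replicate numbers 1 and 2 follow the order of deposit and pair nothing across ages.

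Adventitious roots arise from stem tissue of a cutting rather than from an existing root. In conifers the short lateral roots are the fine absorbing organs, and they are where ectomycorrhizal fungi settle. As a root ages, the cell walls of its inner tissues and outer barriers are generally lignified and suberised, while the tip keeps its meristem. The probes carry an ID of the form Spruce_ and a number, with no gene name or sequence in the files used here, so neither root tissue markers nor fungal markers could be read, and probes are given by ID without a role.

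Each scanner file holds the pixel intensity of 34992 spots and of the local background around each, and 32144 of the spots are spruce probes. Levels below are log2 intensities after background correction and quantile normalisation over 19 arrays. A probe counts as above background on an array when its intensity exceeds its local background by more than 2 background standard deviations, and the 16012 probes above background on at least 4 of the 19 arrays were tested. A difference of 1 on the log2 scale is a doubling of intensity. The number of arrays limits the precision throughout.

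The arrays of both ages were not equally bright before normalisation. Among the 18-month arrays, 18498 and 12487 spruce probes were above background in genotype 20 (replicates 1 and 2) and 12649 and 16460 in genotype 35. The 5-month arrays had 9803 in genotype 20 and 8881 in genotype 35. The share above background was thus 38.8 to 57.5 percent at 18 months and 27.6 to 30.5 percent at 5 months, with no overlap. Median local background was 96, 256, 308 and 147 pixel units on the 18-month arrays and 428 and 490 on the 5-month arrays. Background therefore moved with age in these arrays, and its part in the results was not tested beyond a fit with background as a covariate. In the rest of the study the 7 arrays of 18-month cuttings of genotypes 15 and 18 (titled Fast) and 61 and 70 (titled Slow) had backgrounds of 123 to 721, so a low background was not a property of every 18-month array.

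**Figure D1:**
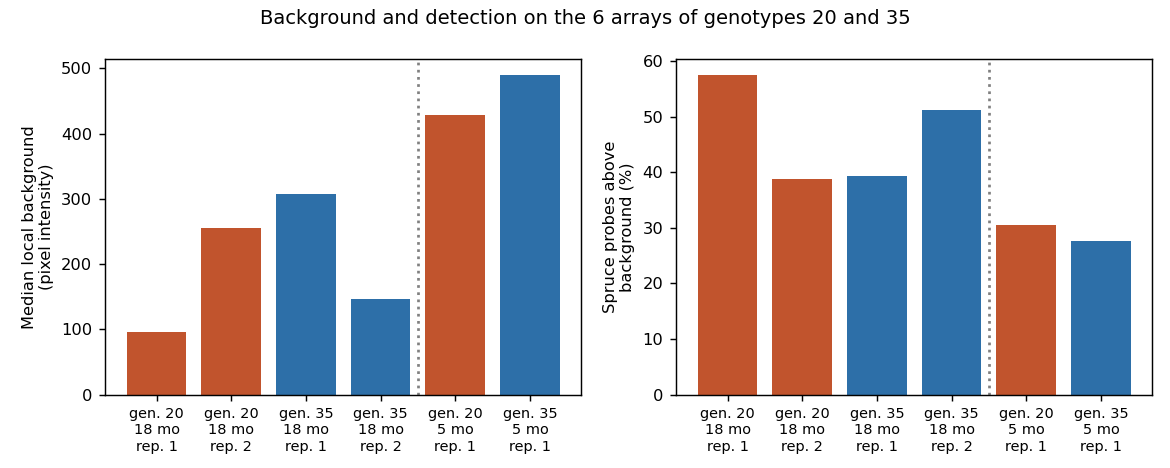
Bars give, for each of the 6 arrays, the median local background in pixel intensity units (left) and the percentage of spruce probes above background (right), with 18-month arrays left of the dotted line and 5-month arrays right of it. The 5-month arrays have the highest backgrounds, 428 and 490, and the lowest shares of probes above background, 30.5 and 27.6 percent.

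Several arrays stood apart from their labels, which bears on every result that follows. After each probe was centred over 17 arrays (all but the pair of genotype 76), genotype 20 replicate 1 at 18 months correlated most with an 18-month array of genotype 52 scanned on the same day (Pearson r across probes = 0.522). Its highest correlation with an array of its own genotype was 0.254. Genotype 20 replicate 2 at 18 months likewise correlated most with an array of genotype 70 from its own scan day (r = 0.485), against at most 0.211 within genotype 20. The 18-month arrays of genotype 35 were closest to each other (r = 0.35). At 5 months the genotype 20 array was closest to genotype 20 replicate 1 (r = 0.254), and the genotype 35 array was closest to a 5-month array of genotype 52 (r = 0.148). Probes within an array are not independent, so these correlations only describe the arrays.

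The authors' deposited table of log2 values also assigned these arrays differently. The 4 scanner files of the 18-month arrays each matched a table column named for another sample, at correlations of 0.903 to 0.922, where a match was counted above 0.8. None of the 6 files matched the column of its own name, and none correlated with it above 0.374. The best correlation of either 5-month file with any column was 0.486. No sample was reassigned. The scanner files are used here under their own titles, and where the table gives a named probe the opposite direction, its value is given beside the result. Its columns may hold other samples than their names say. The column named for the 5-month array of genotype 20 matched the file of an 18-month array of genotype 18 (r = 0.863). The column named for genotype 20 replicate 2 at 18 months matched a 5-month file of genotype 52 (r = 0.92). A difference between ages taken from the table may therefore not compare those ages.

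No probe passed the adjusted test for a difference between 18 and 5 months in genotype 20. In limma (a linear model across all probes, with the spread between replicates estimated from 17 arrays and Benjamini-Hochberg adjustment), 0 of 16012 probes had an adjusted p below 0.05 and the smallest was 0.943. Without adjustment, 722 probes (4.51 percent) had a p below 0.05, with 330 higher and 392 lower at 18 months, against 800.6 that this threshold would pass with no difference anywhere. Genotype 35 gave 0 probes past the adjusted threshold as well, with a smallest adjusted p of 0.424. At the unadjusted threshold it had 1065 probes, 6.65 percent, of which 585 were higher and 480 lower. These are bulk root ends, in which fewer cells of a type and less RNA per cell cannot be told apart.

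The shared age difference, the mean of the differences of the 2 genotypes, gave 0 probes at an adjusted p below 0.05 in limma (0 percent of those tested), with a smallest adjusted p of 0.743. Without adjustment, 774 probes (4.83 percent) had a p below 0.05, with 426 higher and 348 lower at 18 months. The median half-width of the 95 percent interval of the shared difference was 0.902 on the log2 scale. The interval stayed between -1 and 1 for 3772 probes, and 1442 of these were above background on all 6 arrays. For the remaining probes a shared difference of a doubling or a halving was not excluded by the interval.

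The counts moved with the arrays used. Without genotype 35 replicate 2, the probes with an unadjusted p below 0.05 numbered 633 in genotype 35 and 473 for the shared difference. With all 19 arrays in the fit they numbered 335 in genotype 20, 561 in genotype 35 and 396 for the shared difference. Calls also appeared in some settings. With genotype 20 replicate 2 left out, 7 probes passed in genotype 20, all lower at 18 months. With genotype 35 replicate 1 left out, 2 probes passed in genotype 35, 1 in each direction. The shared difference had 0 calls under each omission of an 18-month array. Fitted on the 6 arrays alone, with 2 residual degrees of freedom in place of 7, the shared difference had 1 call, Spruce_02805 (adjusted p = 0.0305 in limma).

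The age differences of both genotypes were then compared, since they share no array. Over the 16012 probes they correlated at Pearson r = -0.0677 and Spearman rho = -0.0971, and 45.6 percent of probes had the same sign. Over the 7336 probes above background on all 6 arrays, r was -0.0338, rho was -0.0694 and 46.9 percent had the same sign. Of the probes with an unadjusted p below 0.05 in both genotypes, 20 were higher in both, 15 were lower in both and 33 went in opposite directions. So the direction of an age difference in genotype 20 did not carry over to genotype 35 more often than not. The correlation was between -0.159 (genotype 35 replicate 2 left out) and 0.026 (genotype 35 replicate 1 left out) without 1 array, 0.103 with array background as a covariate and 0.101 in the authors' table. With the covariate, the differences of both genotypes are corrected by the same slope for each probe, so there they are not separate.

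**Figure D2:**
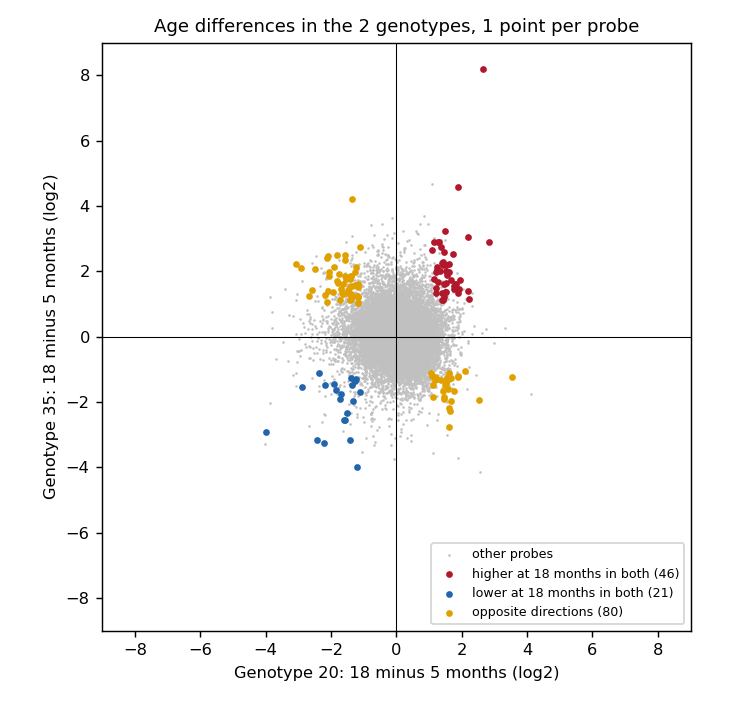
Each point is 1 of 16012 probes, placed by its 18 minus 5 months log2 difference in genotype 20 (horizontal) and genotype 35 (vertical). Coloured points mark the 46 probes shifted higher and 21 shifted lower at 18 months in both genotypes and the 80 shifted in opposite directions, and the cloud shows no slope (r = -0.0677).

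The spread between arrays of the same age was about as large as the distance between ages in genotype 20. Over the 7336 probes above background on all 6 arrays, the median absolute difference from the 5-month array was 0.517 for replicate 1 and 0.561 for replicate 2, and the median difference between the 18-month replicates themselves was 0.572. In genotype 35 the distances to the 5-month array were 0.469 and 0.562, and the 18-month replicates differed by 0.392. Between the genotypes, the 5-month arrays differed by a median of 0.601. The 5-month value of genotype 20 lay below both of its 18-month arrays for 2527 of these probes, above both for 2233 and between them for 2576. For genotype 35 it lay below both for 2281, above both for 3246 and between them for 1809.

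**Figure D3:**
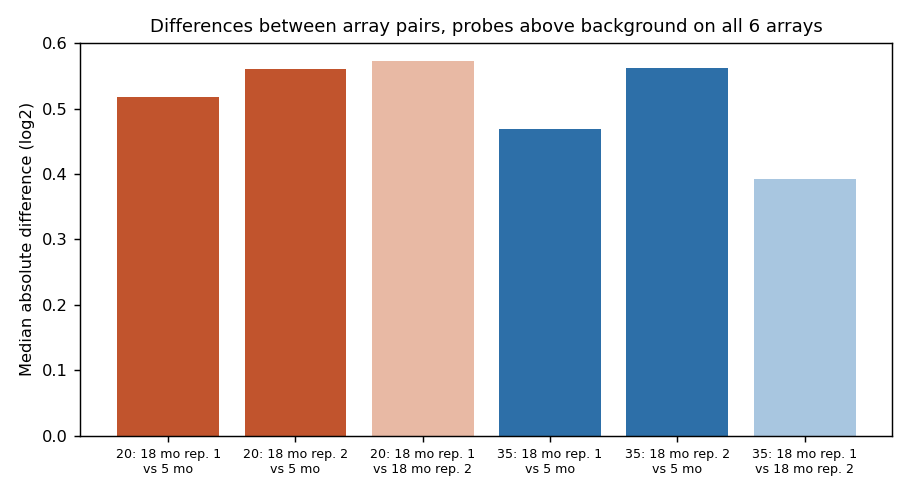
Bars give the median absolute log2 difference between array pairs over the 7336 probes above background on all 6 arrays, dark for an 18-month array against the 5-month array of its genotype and pale for the 18-month arrays against each other. In genotype 20 the pale bar (0.572) is the tallest of its 3, and in genotype 35 the pale bar (0.392) is the shortest.

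Scan timing differed between the arrays as well. The 17 arrays fall in 2 scan periods by the dates in the files. In genotype 20, replicate 1 and the 5-month array were scanned in the earlier period and replicate 2 in the later one. Within the earlier period, 1460 probes were at least 1 log2 unit higher and 1645 at least 1 lower on replicate 1 than on the 5-month array. Across periods, replicate 2 was higher for 1601 and lower for 1665. Both 18-month arrays of genotype 35 came from the earlier period and its 5-month array from the later one, so age and scan period cannot be told apart within genotype 35 alone. With scan period as a term over the 17 arrays, limma gave 0 calls for the shared difference, and 968 probes at an unadjusted p below 0.05. With each array's background as a covariate in its place, a setting added after seeing the data, the shared difference had 0 calls and 706 probes at that threshold.

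Probes were then sorted array by array, with no test: a probe was counted as shifted in a genotype when both 18-month arrays lay at least 1 log2 unit above, or both below, the 5-month array of the same clone. There were 468 probes in genotype 20 shifted higher (2.92 percent) and 529 shifted lower (3.3 percent) at 18 months. Genotype 35 had 846 shifted higher (5.28 percent) and 606 shifted lower (3.78 percent). In both genotypes alike, 46 probes were higher (0.287 percent) and 21 were lower (0.131 percent), 67 in all. In opposite directions there were 80 probes (0.5 percent), of which 30 were higher at 18 months in genotype 20 and lower in genotype 35, and 50 the reverse. Shifts in opposite directions were therefore at least as common as shifts in the same direction.

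The shared probes were a small part of each genotype's own. They made up 9.83 percent of the probes shifted higher in genotype 20, where 5.28 percent of all probes were shifted higher in genotype 35. Of the probes shifted higher in genotype 35 they made up 5.44 percent, beside 2.92 percent of all probes in genotype 20. Among probes shifted lower they made up 3.97 percent in genotype 20, beside 3.78 percent of all probes shifted lower in genotype 35. In genotype 35 they made up 3.47 percent, beside 3.3 percent of all probes in genotype 20. These shares were not tested. Among probes above background on all 6 arrays, 31 shifted alike and 36 in opposite directions. With an 18-month array left out, fewer arrays had to pass the criterion, and the count shifted alike was 84 to 189 with 114 to 220 in opposite directions. The count alike exceeded the count in opposite directions in some settings, as without background correction (27 alike and 17 opposite) and without genotype 35 replicate 1 (147 and 114). The count depended strongly on the source of the values: the authors' deposited table as it stands gave 1277 shifted alike, 1254 of them higher at 18 months.

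Of the 46 probes shifted higher, 45 were above background on all 4 of the 18-month arrays. On the 5-month arrays 17 of them were above background on both, 16 on 1 and 13 on neither, so for many the lower level is only bounded. Their shared differences ran from 1.25 to 5.43 with a median of 1.71, beside a median of 0.0179 over all probes tested. Of the 21 shifted lower, 20 were above background on both 5-month arrays and 14 on all 4 of the 18-month arrays, and their differences ran from -3.46 to -1.27 with a median of -1.82. These sizes follow from the criterion that chose the probes and support nothing by themselves. Adjusted p-values for the shared difference in limma were 0.743 to 0.982 in both lists.

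Spruce_19084 was the probe shifted higher with the smallest unadjusted p. Its levels were 12.33 and 13.21 in genotype 20 and 13.11 and 13.73 in genotype 35 at 18 months, against 11.30 and 10.17 at 5 months in genotypes 20 and 35. The ages did not overlap, and all 6 arrays were above background. The shared difference was 2.36 ± 0.44 (SE, limma adjusted p = 0.743). In raw pixel units the spot read 4568, 8916, 9668 and 12485 on the 18-month arrays against 3198 and 1618 on the 5-month arrays, so the order of the ages was present before normalisation too.

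Spruce_02805 had the widest shared difference, 5.43 ± 1.15 (SE, limma adjusted p = 0.743). It stood at 15.52, 15.91, 15.84 and 15.86 on the 18-month arrays, near the top of the scanner range, with raw readings of 38508, 63698, 65451 and 55446. At 5 months it was 13.06 in genotype 20 (raw 9567) and 7.65 in genotype 35 (raw 610 over a local background of 503, not above background). The 18-month arrays were close together, whereas the 5-month arrays of the genotypes lay far apart. In genotype 35 the level was at least 152-fold higher at 18 months, and in genotype 20 the difference was 2.66 on the log2 scale. In genotype 52 the 5-month arrays of this probe read 7.11 and 13.33, a pair that enters the estimate of its spread.

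Further probes were above background at 18 months and not on either 5-month array. Spruce_05358 had levels of 9.39, 9.68, 9.70 and 10.85 at 18 months and 8.37 and 7.37 at 5 months, at least 2.67-fold higher at 18 months over both genotypes. Spruce_02899 had 10.30, 9.70, 10.45 and 10.96 at 18 months and 8.11 and 6.13 at 5 months, at least 3.68-fold higher. In both probes the ages did not overlap, and limma's adjusted p for the shared difference was 0.743. In the authors' table the difference of Spruce_05358 was -0.22, the opposite direction. Bounds set the mean of the bright age against the lowest signal that counts as above background on each dim array, or the probe's own signal where that is higher. They take no account of the spread between arrays.

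In other probes the genotype 20 array was above background at 5 months and the genotype 35 array was not. Spruce_11820 read 11.66, 11.54, 10.58 and 10.28 at 18 months and 9.41 and 7.38 at 5 months. Spruce_22382 read 10.10, 9.96, 10.36 and 10.34 against 8.87 and 8.59. Both also had groups that did not overlap, with shared differences of 2.62 ± 0.57 and 1.46 ± 0.34 (SE, limma adjusted p = 0.743 in both). Spruce_03961 had a shared difference of 1.91, but one of its genotype 35 levels at 18 months (9.18 and 10.55) lay below the genotype 20 level at 5 months (9.62), so its ages separated within each genotype and not across them. Spruce_28202 had a shared difference of 1.67, with 9.51 and 9.62 in genotype 35 at 18 months and 9.40 in genotype 20 at 5 months, which left almost no gap between the pooled ages. In the authors' table both differences were of the opposite sign, -0.78 for Spruce_03961 and -0.28 for Spruce_28202.

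**Figure D4:**
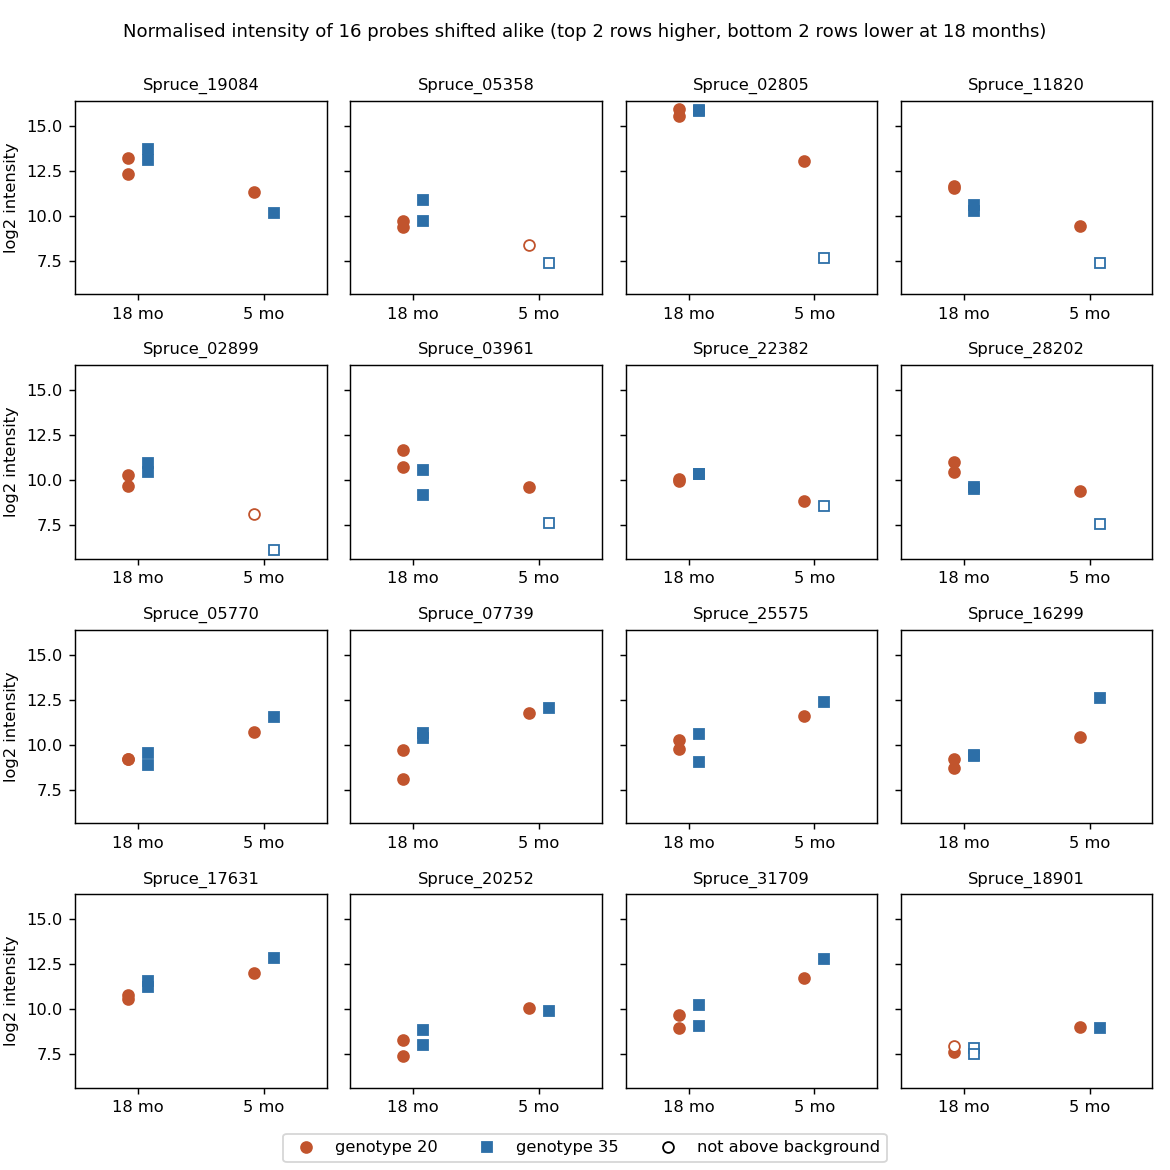
Each panel shows 1 of the 16 named probes on the 6 arrays as normalised log2 intensity, with 18 months left of 5 months, circles for genotype 20, squares for genotype 35 and open symbols where the probe was not above background. The top 2 panel rows are probes higher at 18 months and the bottom 2 are probes lower at 18 months, and Spruce_02805 shows the widest gap, 15.52 to 15.91 against 13.06 and 7.65.

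Among probes lower at 18 months, Spruce_05770 had the smallest unadjusted p. It read 9.20, 9.18, 9.56 and 8.90 at 18 months against 10.71 and 11.56 at 5 months, above background on all 6 arrays. Its shared difference was -1.93 ± 0.33 (SE, limma adjusted p = 0.743), and the lowest 5-month level exceeded the highest 18-month level by more than 1 log2 unit. In the authors' table the difference was 1.22, the opposite direction.

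Spruce_07739 was spread more widely at 18 months, with 8.12 and 9.69 in genotype 20 and 10.38 and 10.66 in genotype 35, against 11.78 and 12.07 at 5 months. The 5-month arrays lay close together and above all of the 18-month arrays. Raw readings were 271, 915, 1712 and 1590 at 18 months against 4303 and 4640 at 5 months, so the gap was present before normalisation. Spruce_31709 had one of the wider differences, -2.79 ± 0.80 (SE, limma adjusted p = 0.920), with 8.97, 9.69, 10.24 and 9.09 at 18 months against 11.76 and 12.81 at 5 months. Here too the ages did not overlap, but in the authors' table the difference of Spruce_31709 was 0.97, the opposite direction.

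The remaining named probes lower at 18 months had shared differences of -2.30 (Spruce_16299), -2.05 (Spruce_25575), -1.83 (Spruce_20252), -1.42 (Spruce_17631) and -1.27 (Spruce_18901), with limma adjusted p-values of 0.743 to 0.934. In the authors' table all 5 had the opposite sign, at 1.02 for Spruce_16299, 1.31 for Spruce_25575, 0.41 for Spruce_20252, 0.82 for Spruce_17631 and 1.25 for Spruce_18901. That table leaned one way over all probes tested. At an unadjusted p below 0.05 in limma it had 353 probes higher and 6 lower at 18 months for the shared difference. Spruce_17631 was the brightest of them, at 10.80, 10.60, 11.23 and 11.55 at 18 months against 12.04 and 12.88 at 5 months. Spruce_18901 was dim, at 7.62, 7.96, 7.84 and 7.50 at 18 months against 9.03 and 8.97 at 5 months, and was above background on 1 of the 4 arrays at 18 months, a genotype 20 array. In genotype 35, where neither 18-month array was above background, it read 2.47-fold lower at 18 months, and that level is only bounded.

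A few of the other 67 probes were singled out after their values were seen. Spruce_12157 had the largest shared difference below 0, -3.46, with levels of 8.71, 10.75, 12.62 and 10.24 at 18 months and 13.73 and 14.36 at 5 months. Spruce_00488 was among the brightest, at 14.34, 15.35, 15.26 and 15.85 at 18 months and 13.32 and 13.54 at 5 months. Spruce_20837 was at 8.40, 8.48, 8.94 and 8.11 at 18 months and 10.64 and 11.78 at 5 months. With 2 log2 units in place of 1 as the criterion, 4 probes remained: Spruce_11820 and Spruce_02805 higher, and Spruce_31709 and Spruce_20837 lower. A single probe, Spruce_15465, was in opposite directions at that criterion.

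Some probes shifted in opposite directions in the 2 genotypes. In Spruce_22799 the 18-month levels were 10.03 and 9.60 in genotype 20 and 8.73 and 9.56 in genotype 35, against 8.34 and 11.05 at 5 months. The ages overlapped when genotypes were pooled and separated within each, and the 5-month array of genotype 20 was not above background. Genotype 20's age difference minus genotype 35's was 3.38 ± 0.66 (SE, limma adjusted p = 0.750, unadjusted p = 0.000234).

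Among the 6 named probes shifted in opposite directions, Spruce_15465 had the largest such difference, -5.03 ± 1.21 (SE, limma adjusted p = 0.750). Its 18-month levels were 9.69 and 8.33 in genotype 20 and 11.16 and 11.00 in genotype 35, against 11.93 and 8.97 at 5 months. The genotypes thus traded places between the ages, though the 5-month array of genotype 35 was not above background for this probe. Spruce_30085 was at 11.26 and 11.73 in genotype 20 and 10.02 and 11.39 in genotype 35 at 18 months, against 8.96 and 12.65 at 5 months. Over all probes the difference between the genotypes gave 0 calls at an adjusted p below 0.05 in limma and 1010 probes, 6.31 percent, at an unadjusted p below 0.05.

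The probe with the smallest unadjusted p in each direction of each genotype was also read in the other genotype. Spruce_23469 was at 11.41 and 10.81 at 18 months against 8.11 at 5 months in genotype 20, at least 6.80-fold higher, and at 9.78 and 9.67 against 9.93 in genotype 35. Spruce_00951 was at 11.25 and 11.95 against 8.79 in genotype 35, 7.03-fold higher at 18 months as measured, with the 5-month array not above background. In genotype 20 Spruce_00951 was at 11.05 and 10.99 against 10.57. In the other direction, Spruce_20639 differed by -2.46 in genotype 20 and by 0.26 in genotype 35, and Spruce_28418 by -3.05 in genotype 35 and by -0.72 in genotype 20. Spruce_00951 and Spruce_28418 thus ran the same way in both genotypes, with the smaller difference in genotype 20. The adjusted p-values in limma were 0.943 for the genotype 20 differences and 0.424 for the genotype 35 differences of these probes. None passed the test, and none of the differences between genotypes passed it. In the authors' table the genotype 20 differences had the opposite sign, -0.76 for Spruce_23469 and 0.93 for Spruce_20639.

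At the other end, a pair of bright probes was nearly level over the 6 arrays. Spruce_01995 read 12.25, 12.10, 12.15 and 12.04 at 18 months and 12.03 and 12.09 at 5 months, a range of 0.224. Spruce_05020 read 12.61, 12.38, 12.46 and 12.41 at 18 months and 12.55 and 12.41 at 5 months, also a range of 0.224. They were chosen for that range, and the 95 percent interval of the shared difference was 0.08 ± 0.85 for the first and -0.01 ± 0.76 for the second, since the spread is estimated from all 17 arrays. In the authors' table the difference of Spruce_05020 was 0.43.

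Detection differed between the ages in the same sense as the backgrounds, which were higher at 5 months. Of the 32144 spruce probes, 997 were above background on all 4 of the 18-month arrays and on neither 5-month array, and 0 showed the reverse. Those 997 probes were all tested, and 12 of them were among the probes shifted alike, beside 67 of all 16012 probes tested. The median level of all 997 was 8.63 at 18 months and 8.30 at 5 months, a gap far below 1 log2 unit. Within genotype 20, 2982 probes were above background on both 18-month arrays and not at 5 months, against 40 the other way, and within genotype 35 the counts were 3776 and 49.

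Genotype 52, titled Slow and the only other genotype sampled at both ages, took no part in choosing the 67 probes. Its 2 arrays at 18 months had median backgrounds of 184 to 270 and its 2 at 5 months 421 to 477, so background moved with age there as well. Of the 46 probes shifted higher, 32 were higher at 18 months in genotype 52 too and 14 were lower, 69.6 percent against 51.3 percent of all probes tested. Of the 21 shifted lower, 16 were lower and 5 higher, 76.2 percent against 48.7 percent of all probes. Together 48 of the 67, 71.6 percent, ran the same way in genotype 52 as in the shared difference, where 59.5 percent of all probes did so. For genotype 35 alone, 66.4 percent of all probes ran the same way as in genotype 52, and for genotype 20 alone 45.3 percent. The share among the 67 is therefore not read as particular to probes shifted alike. The median difference in genotype 52 was 0.545 over the probes shifted higher and -0.863 over those shifted lower. In 17 of the 46 and 8 of the 21 the arrays of both ages did not overlap in that direction (37 and 38.1 percent), against 27.1 and 24.2 percent of all probes.

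None of the 67 passed limma's adjusted test in genotype 52, where 0 of all 16012 probes did and 2516, 15.7 percent, had an unadjusted p below 0.05. Spruce_02899 was at 9.93 and 11.93 at 18 months and 6.88 and 7.88 at 5 months in genotype 52, a difference of 3.55. Spruce_19084 was at 12.80 and 12.52 at 18 months and 10.06 and 11.07 at 5 months, a difference of 2.09. Both ran as in genotypes 20 and 35. Spruce_05770 did not, with 9.28 and 9.46 at 18 months and 9.13 and 9.46 at 5 months, a difference of 0.08. Spruce_20571 ran against the other genotypes, with a difference of -3.02 in genotype 52 beside 1.30 in genotype 20 and 2.89 in genotype 35.

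**Figure D5:**
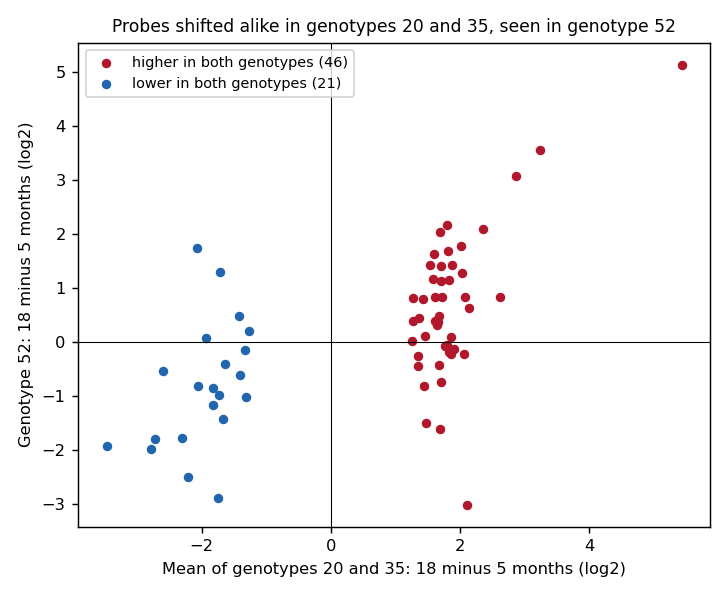
Each point is 1 of the 67 probes shifted alike in genotypes 20 and 35, placed by the mean 18 minus 5 months log2 difference of those genotypes (horizontal) and by the difference in genotype 52 (vertical). Of these, 32 of 46 red points lie above 0 and 16 of 21 blue points lie below 0 on the vertical axis.

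Across all probes the genotypes did not relate to genotype 52 equally. The age difference of genotype 35 correlated with that of genotype 52 at r = 0.417, with 66.4 percent of the same sign, and that of genotype 20 at r = -0.0288, with 45.3 percent. These comparisons share no array, but scan timing was partly alike in genotypes 35 and 52. The 18-month arrays of both were scanned in the earlier period. The 5-month arrays of genotype 35 and of genotype 52 replicate 1 came from the later period, and that of genotype 52 replicate 2 from the earlier. The part of scan timing in this correlation was not tested. Genotype 20 replicate 1 at 18 months resembled the 18-month arrays of genotype 52 (r = 0.481 and 0.522), which were scanned on the same day. Replicate 2 of genotype 20 did not (r = -0.23 and -0.237). With that replicate 2 left out, 88.2 percent of the probes shifted alike ran the same way in genotype 52, against 71.6 percent with both. The share over all probes under that omission is not given, so the rise is not read as a result about the probes shifted alike.

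Levels of some probes on the 7 arrays of 18-month cuttings of the other genotypes (15 and 18, titled Fast, and 61 and 70, titled Slow) serve as a description. Spruce_02805 was at 14.41 to 15.99 on them, with a median of 15.55. Spruce_03961 was at 8.74 to 9.61 there, below the 5-month level of genotype 20 (9.62). These genotypes have no 5-month arrays, so the values bear on the 18-month level only.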

How the data were processed

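Per the file headers, each scanner file gives an intensity for the spot and for its local background (medians of pixels, 1 dye), which the authors deposited without normalisation. The authors' deposited table holds log2 values floored at 0, made by steps not given in the sources used here, and it was tried in place of the scanner files. Background correction by normexp (offset 50) used all spots, after which 2848 control spots were removed and quantile normalisation of log2 values was run over 19 arrays, with limma 3.58.1 (R 4.3.3). The filter kept 16012 probes and left out 16132. The fit had 1 mean per genotype and age over 17 arrays, without genotype 76, with 7 residual degrees of freedom, of which genotypes 20 and 35 supply 2. Genotype 76 was left out because 1 of its files names another channel and both were scanned apart from the rest. Its arrays did enter the normalisation and the fit on all 19 arrays. All p-values are two-sided, and the Benjamini-Hochberg adjustment covers every probe kept. Each p-value sets a difference against a spread estimated from replicates over the 17 arrays. Genotypes 20 and 35 have 1 array each at 5 months, which adds nothing to that spread. Spread between 5-month replicates therefore comes from genotype 52 alone. The fits were tested on simulated data.

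Named probes were those with the smallest p: 8 shared in each direction among probes shifted alike and above background on every array of the brighter age, 3 in each opposite direction, 1 per genotype and direction, and the 2 with the smallest range. Members, lists and criteria were chosen with earlier results of these data known. Alternatives changed the background correction, normalisation, filter, arrays fitted, scan terms, criterion and source of values.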

Additional observations from a re-analysis of the deposited data

Results flagged for a closer look

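Among the named probes, 8 had both 18-month arrays of genotype 20 on 1 side of its 5-month array and both of genotype 35 on the other side of its own. The values below are genotype 20's age difference minus genotype 35's on the log2 scale. Unadjusted p-values were 0.000234 to 0.00182, while limma's adjusted p was 0.750 for each of them, so no difference between the genotypes passed the test. The age difference was more positive in genotype 20 for Spruce_22799 (3.38), Spruce_23535 (3.90), Spruce_30085 (4.48) and Spruce_23469 (3.20). It was more negative in genotype 20 for Spruce_18590 (-3.42), Spruce_15465 (-5.03), Spruce_08588 (-3.85) and Spruce_20639 (-2.71). In 6 of the 8 the values rest on a 5-month array that was not above background, that of genotype 20 for Spruce_22799, Spruce_23535 and Spruce_23469 and that of genotype 35 for Spruce_18590, Spruce_15465 and Spruce_08588, so those levels are only bounded. All but Spruce_23469 and Spruce_20639 were drawn from the probes shifted in opposite directions, so they meet this description by that choice. These probes were also named because of their small p-values, and each 5-month side rests on 1 array per genotype. A search for a single array far from the others covered 30 sets of values on the 18-month arrays of both genotypes and found 0. The 5-month arrays, on which every age difference rests, were not searched.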

How the results depend on the processing

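No paired analysis was possible because each genotype has 1 array at 5 months and its ages share fewer than 2 title numbers, and for the same reason no 5-month array could be left out. The count shifted alike, 67, was 453 at 0.5 log2, 4 at 2 log2, 27 without background correction, 31 with probes above background on all 6 arrays, and 1277 in the authors' table. It was 441 in that table after quantile normalisation and 34 with values raised to a common floor of 8.99. The quantile-normalised table, the floor and the background covariate were chosen after seeing the data. Leaving out an 18-month array gave 84 to 189. Calls in genotype 35 and for the shared difference numbered 1 each with the 6 arrays normalised and fitted alone or only fitted alone (Spruce_02805). Without a filter they numbered 1 each, and the difference between genotypes also 1 (Spruce_30209, lower at 18 months in genotype 35 and not above background on at least 4 arrays, named after its values were seen). Leaving out an array gave 0 to 7 calls in genotype 20 and 0 to 2 in genotype 35. The share running alike in genotype 52 was 98.1 percent in the table and 67.7 to 88.2 percent with an array left out. The share over all probes is not given for these settings, so none of these shares is read as a result. Of the 1277 probes shifted alike in the table, nearly all (1254) were higher at 18 months. The columns named for genotype 52 at 18 months matched files of genotypes 20 (r = 0.922) and 35 (r = 0.903) at that age. The correlation between genotypes was 0.019 with scan day as a block, 0.101 in the table, 0.103 with background as a covariate, 0.105 in the quantile-normalised table and -0.159 to 0.026 with an array left out. All 16 named shared probes kept their direction under each scanner-file setting that tested them, and 6 of 16 did in each form of the table. Under many scanner-file settings the direction could not change. Leaving out an 18-month array cannot reverse a probe chosen by this criterion. Other filters, arrays fitted or spread estimates leave its group means as they were. Only changes of background correction, normalisation, scan terms or the background covariate could have reversed it. Shared differences of opposite sign in the table were -0.22 (Spruce_05358), -0.78 (Spruce_03961), -0.28 (Spruce_28202), 1.22 (Spruce_05770), 1.31 (Spruce_25575), 1.02 (Spruce_16299), 0.82 (Spruce_17631), 0.41 (Spruce_20252), 0.97 (Spruce_31709), 1.25 (Spruce_18901) and 0.43 (Spruce_05020). Others were 0.94 for the difference between genotypes (Spruce_18590) and -0.76 (Spruce_23469) and 0.93 (Spruce_20639) in genotype 20. In the quantile-normalised table they were -0.96 (Spruce_05358), -0.29 (Spruce_11820), -1.53 (Spruce_03961), -1.03 (Spruce_28202), 0.51 (Spruce_05770), 0.55 (Spruce_25575), 0.25 (Spruce_16299), 0.05 (Spruce_17631), 0.20 (Spruce_31709), 0.56 (Spruce_18901) and, in genotype 20, -2.01 (Spruce_23469). The level probes crossed 0 with scan period as a term, to -0.07 (Spruce_01995) and 0.03 (Spruce_05020), and Spruce_05020 to 0.04 without genotype 20 replicate 2. The causes were not tested. Of the 46 probes shifted higher, 13 were above background on neither 5-month array, so their levels there are only bounded.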
